A study of Mus musculus with 22 samples.

Results

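The genes described here encode the Atg8 proteins of the autophagosome and the receptors that bind them. They are 5 Atg8 genes (Map1lc3a, Map1lc3b, Gabarap, Gabarapl1 and Gabarapl2) and 5 cargo receptor genes (Sqstm1, which encodes p62, Nbr1, Optn, Tax1bp1 and Calcoco1). They were taken by symbol from a count table of 55573 mouse genes, in which each symbol has 1 row, and all 10 were among the 14062 genes tested, whose counts averaged 10 or more. Liver mRNA of 22 C57BL/6 mice was sequenced, 1 library per mouse, to learn how loss of folliculin in the liver and a fibrosis-inducing diet change the liver transcriptome. Cre mice carried Albumin-Cre and wild-type Flcn, and liver-Flcn-/- mice carried Albumin-Cre and floxed Flcn alleles, so that both genotypes expressed the recombinase; the latter are also called knockouts here, and FLCN KO in the plots. The diet was chow with 10 kcal percent fat (6 Cre and 5 liver-Flcn-/- mice) or a diet deficient in methionine and choline and rich in sucrose (MCD, 5 Cre and 6 liver-Flcn-/- mice), begun at 6 weeks of age and kept for 6 weeks, in mice labelled as 3 months old. The albumin promoter drives the recombinase in hepatocytes whereas the libraries hold RNA of whole liver, and in such bulk samples fewer cells of a type and less RNA per cell cannot be told apart. Each library held between 13751347 and 21144388 reads assigned to genes, and the members had between 268 (Gabarapl2) and 27695 (Sqstm1) reads in a library.

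Atg8 proteins resemble ubiquitin in their fold. Atg4 proteases trim their C-terminal end back to a glycine, and a ubiquitin-like cascade then attaches that glycine to a lipid of the growing autophagosome membrane. Cargo receptors hold the material to be degraded, often through ubiquitin, and reach the membrane through a short Atg8-docking motif built around an aromatic and a hydrophobic residue. p62 is degraded along with its cargo, collects in protein inclusions of injured hepatocytes and binds KEAP1, the inhibitor of the transcription factor NRF2. Folliculin acts on the Rag GTPases that keep TFEB and TFE3, transcription factors of lysosome and autophagy genes, out of the nucleus.

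The coding sequences below show the parts by which the products of these genes meet, and how far the Atg8 genes differ around the conjugated glycine. For each Atg8 gene the last 30 coding bases with the stop codon are given 5′ to 3′, with the codon of the conjugated glycine in capitals. They lie on GRCm38 at chr2:155277608-155277637 for Map1lc3a, chr8:121596741-121596770 for Map1lc3b, chr11:69994495-69994524 for Gabarap, chr6:129541138-129541167 for Gabarapl1 and chr8:111952376-111952405 for Gabarapl2, all on the plus strand.
Map1lc3a: tacgcctcccaagaaaccttcGGCttctga
Map1lc3b: gagacattcGGGacagcaatggctgtgtaa
Gabarap: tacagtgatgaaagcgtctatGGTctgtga
Gabarapl1: tacagtgatgaaagtgtctatGGAaaatga
Gabarapl2: tacagcggagagaacacttttGGCttctga
Map1lc3b has 5 codons behind the glycine, and each of the other 4 genes has 1. For 3 receptors 30 coding bases around the Atg8-docking motif are given in the same way, with the codons of its aromatic and its hydrophobic residue in capitals. They lie at chr11:50202535-50202564 on the minus strand for Sqstm1, at chr11:101575130-101575159 on the plus strand for Nbr1 and at chr2:5045990-5046019 on the minus strand for Optn.
Sqstm1: ggagacgatgacTGGacacatTTGtcttca
Nbr1: tcctctgaagatTATatcatcATCcttcct
Optn: tcggaagactccTTCgttgagATCaggatg

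The Atg8 genes are related closely enough that reads could be split between them, so this was checked on the GENCODE M21 transcripts. The coding sequences were most alike for Map1lc3a and Map1lc3b (78.4% identical bases) and for Gabarap and Gabarapl1 (74.6%), and the longest exact stretch shared by the principal transcripts of any pair of Atg8 genes was 17 bases. No stretch of 75 bases, the length of a read, was shared between any of the 10 members. Gabarapl1 and Sqstm1 each overlap a gene on the opposite strand, with 28.3% of the exon bases of Gabarapl1 inside 1700101I11Rik and 17.3% of those of Sqstm1 inside Mrnip. These partners had mean counts of 12.0 and 149, against 7460 for Gabarapl1 and 12300 for Sqstm1, and whether the counting used strand is not given in the sources used here. Of the stretches of Map1lc3b 4.09% also occur in other genes, mainly the pseudogene Gm6055 (mean count 24.9), and of those of Gabarapl2 9.53%, mainly Gm3724 (mean count 2.82).

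Flcn itself was counted in every mouse. In CPM, read counts scaled to a common library size, Flcn was 26.1 to 40.2 with a median of 31.8 in Cre mice on chow and 24.2, 20.0, 16.7, 19.4 and 21.8 in liver-Flcn-/- mice on chow, so the groups did not overlap. The fold change between genotypes was -0.63 on the log2 scale (SE 0.17, edgeR adjusted p = 0.025). On MCD Flcn was 31.7, 18.2, 39.9, 32.5 and 23.6 CPM in Cre mice and 17.6 to 32.6 CPM with a median of 26.6 in liver-Flcn-/- mice. These ranges overlap, and the difference of -0.16 (SE 0.17, adjusted p = 0.57) did not pass the threshold. Recombination removes a single exon, and the counts sum reads over the whole gene in all cells of the liver.

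The 7 hepatocyte markers in the table summed to 133520 ± 18160 CPM (SD, n = 6) in Cre mice on chow, of which Alb, the gene of serum albumin, made up 101060, and no marker was at 0. Cre mice had 90020 ± 14321 CPM (SD, n = 5) on MCD, and 6 of the 7 markers passed the test as lower, where 28.2% of all tested genes did. The liver-Flcn-/- mice had 110710 ± 20126 CPM (SD, n = 5) on chow and 73314 ± 8121.8 CPM (SD, n = 6) on MCD. In them 5 of the 7 markers passed as lower with MCD, where 22.5% of all tested genes did. Markers of other cells moved as well: in Cre mice 6 of 8 stellate cell markers rose with MCD, where 29.3% of all tested genes did. The stellate cell markers summed to 613 ± 139 CPM (SD, n = 5) on MCD against 332 ± 79.6 CPM (SD, n = 6) on chow. Neutrophil markers had few reads on chow and are given by their sums only. These were 27.4 ± 16.8 CPM (SD, n = 5) on MCD against 3.85 ± 2.59 CPM (SD, n = 6) on chow in Cre mice. In the knockouts they were 15.7 ± 5.70 CPM (SD, n = 6) against 4.25 ± 1.82 CPM (SD, n = 5). Dcn was the most abundant stellate cell marker and S100a9 the most abundant neutrophil marker. Between genotypes on MCD 4 of 8 stellate cell markers were lower in liver-Flcn-/- mice, against 8.53% of all tested genes. MCD raised 3 and lowered 2 of 10 Kupffer cell and macrophage markers in Cre mice and lowered 4 in the knockouts, where 22.5% of all tested genes fell, and of 8 endothelial cell markers 2 rose and 4 fell in Cre mice and 5 fell in the knockouts. Markers of cholangiocytes, the bile duct cells, summed to 64.3 ± 18.2 CPM (SD, n = 6) on chow and 141 ± 22.9 CPM (SD, n = 5) on MCD in Cre mice. The knockouts had 125 ± 47.7 CPM (SD, n = 5) and 120 ± 22.2 CPM (SD, n = 6). Spp1 made up most of these sums, with 44.5 and 117 CPM in Cre mice and 103 and 91.6 CPM in the knockouts. Of 6 cholangiocyte markers 2 were higher in the knockouts on chow and 2 on MCD, and none was lower. Of all tested genes 5.52% and 8.06% were higher, and the median log2 fold change of the 6 on MCD was -0.43. With MCD 3 rose in Cre mice and none passed in the knockouts. The part of all these cells in the results was not tested. Skeletal muscle markers summed to 3037.6 CPM in Cre MCD mouse 3, 147 in Cre MCD mouse 4, 67.2 in liver-Flcn-/- MCD mouse 3 and at most 19.4 in the other 19 libraries.

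Sex was read from Xist and Y-linked counts, and each group held both sexes (3 males of 6 and 2 males of 5 on chow, 2 males of 5 and 3 males of 6 on MCD, for Cre and liver-Flcn-/- mice respectively). The 5 male mice on chow are the same mice whose libraries the study lists with a low share of uniquely mapped reads, so on chow sex and mapping cannot be told apart. Xist had 5411 to 7573 reads in the 12 libraries read as female and at most 19 in the 10 read as male. Y-linked genes had 1906 to 4321 reads in the males and 0 to 224 in 10 of the females, but 675 in Cre MCD mouse 1 and 451 in liver-Flcn-/- chow mouse 2. Without these 2 libraries Gabarapl1 on chow (0.45, adjusted p = 0.078) and Map1lc3a on MCD (-0.47, adjusted p = 0.070) were no longer called between genotypes, and no other call of a member changed. Calls of members that were lost within a sex are given with each gene below.

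Levels were compared between genes per kilobase (kb) of exons. In Cre mice on chow Gabarapl1 had the highest level, 189 ± 30.7 CPM per kb (SD, n = 6), before Gabarap with 138 ± 8.54 and Sqstm1 with 136 ± 15.5, and the ranges of neighbours in this order overlapped. Nbr1 (29.4 ± 4.89), Optn (27.4 ± 1.963), Map1lc3a (25.0 ± 4.85) and Tax1bp1 (19.8 ± 2.89) followed, with a gap below Sqstm1 and overlapping ranges from each to the next. Gabarapl2 (10.4 ± 2.44) and Map1lc3b (8.94 ± 1.36) came next, and Calcoco1 was lowest with 6.45 ± 0.850. The order was the same in liver-Flcn-/- mice on chow, where Gabarapl1 with 259 ± 46.4 CPM per kb (SD, n = 5) did not overlap Gabarap. On MCD Sqstm1 came first in both genotypes, at 247 ± 71.9 CPM per kb (SD, n = 5) for Cre, where it did not overlap Gabarap (127 ± 11.6), and with 241 ± 24.0 CPM per kb (SD, n = 6) in liver-Flcn-/- mice, where it overlapped Gabarapl1 (239 ± 41.3). The lengths are unions over all annotated exons, which is 7517 bases for Map1lc3b and 1181 bases for Map1lc3a, so levels per kb depend on which transcripts are used.

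**Figure D1:**
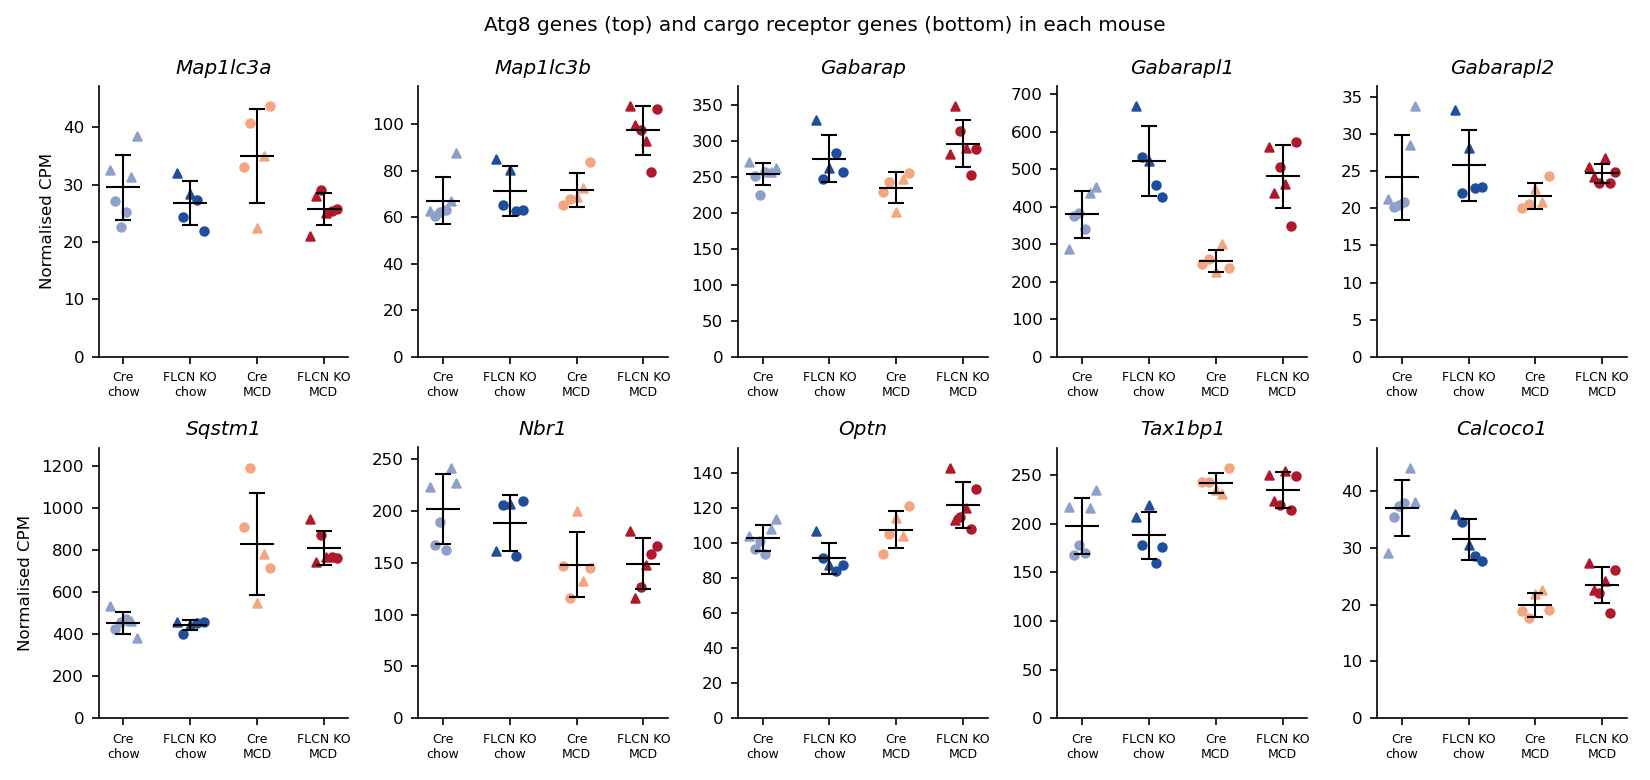
Normalised CPM of the 10 genes in each mouse, with the Atg8 genes above and the cargo receptor genes below, by genotype and diet (circles, female; triangles, male; black bars, mean ± SD of 5 or 6 mice). Sqstm1 is above every chow mouse in every MCD mouse, and Gabarapl1 on MCD is higher in all 6 liver-Flcn-/- mice than in the 5 Cre mice.

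Among the cargo receptors, Sqstm1 rose with MCD in both genotypes by nearly the same amount and did not differ past the threshold between genotypes on either diet. Sqstm1 was 380 to 536 CPM with a median of 461 in Cre mice on chow against 909, 1193, 548, 783 and 716.5 CPM on MCD. In the knockouts it was 459, 403, 443, 452 and 458 CPM on chow and 743 to 947 CPM with a median of 768 on MCD. In both genotypes every mouse on MCD was above every mouse on chow, and the spread was widest in Cre mice on MCD, where mouse 2 was highest and mouse 3, the library with the muscle markers, was lowest. The log2 fold change with MCD was 0.87 (SE 0.14, edgeR adjusted p = 1.7e-05) in the Cre genotype, and the knockout had 0.87 (SE 0.14, adjusted p = 3.2e-05). The exact permutation test gave p = 0.002165 in each genotype, the smallest that 462 splits allow. The interaction of genotype and diet was 0.01 with a 95% interval from -0.40 to 0.41. Between genotypes the difference was -0.04 on chow (95% interval -0.32 to 0.24, adjusted p = 0.90) and -0.03 on MCD (95% interval -0.32 to 0.25, adjusted p = 0.90). The response in Cre mice was 0.98 without mouse 3 on MCD and 0.70 without mouse 2 on MCD, the lowest and the highest of that group, and it was called without each mouse in turn. In male Cre mice alone (3 on chow, 2 on MCD) the difference in Sqstm1 was 0.55 with an adjusted p of 0.051, in female Cre mice it rose by 1.06 with an adjusted p of 1.3e-04, and the difference between sexes was not tested.

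In all, 5 of the 10 members passed the edgeR test for the diet in Cre mice, where 57.5% of the tested genes did, and 5 of 10 in liver-Flcn-/- mice, where 45.0% did. Sqstm1 and Calcoco1 in Cre mice, and Sqstm1, Optn and Calcoco1 in liver-Flcn-/- mice, had groups that did not overlap, as had 32.5% and 29.2% of the tested genes. Calcoco1, a receptor linked to turnover of endoplasmic reticulum and Golgi, went the other way from Sqstm1. It was 29.0 to 44.1 CPM with a median of 37.6 in Cre mice on chow and 18.8, 17.7, 21.9, 22.6 and 19.01 CPM on MCD. The knockouts had 36.0, 34.6, 30.6, 28.6 and 27.6 CPM on chow and 18.5 to 27.4 CPM with a median of 23.4 on MCD. All MCD mice lay below all chow mice of their genotype, although the gap in liver-Flcn-/- mice was only that between 27.4 and 27.6 CPM. The fold change was -0.89 (SE 0.11, adjusted p = 9.0e-07) in Cre mice and -0.42 (SE 0.11, adjusted p = 0.0033) in liver-Flcn-/- mice. The interaction of 0.47 had an adjusted p of 0.063, past the threshold in DESeq2 (0.046) and without Cre chow mouse 1, liver-Flcn-/- chow mouse 1 or liver-Flcn-/- MCD mouse 5 (0.032 to 0.046). The fall in the knockouts was not called in male mice alone (-0.44, adjusted p = 0.10), nor in female mice without the 2 libraries with the most Y-linked counts (-0.34, adjusted p = 0.082).

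Nbr1, a receptor that works together with p62 on ubiquitin-tagged cargo and also serves the turnover of peroxisomes, was 202 ± 33.6 CPM (SD, n = 6) on chow and 148 ± 31.4 CPM (SD, n = 5) on MCD in Cre mice. It fell by 0.44 in Cre mice (SE 0.15, edgeR adjusted p = 0.012), and its groups overlapped, with Cre MCD mouse 3 at 200 CPM among the chow mice. In the knockouts Nbr1 was 188 ± 26.8 CPM (SD, n = 5) on chow and 149 ± 24.3 CPM (SD, n = 6) on MCD, a difference of -0.33 (SE 0.14) with an adjusted p of 0.064. That value passed the threshold without Cre MCD mouse 3, liver-Flcn-/- chow mouse 1 or 4, or liver-Flcn-/- MCD mouse 1 (0.036 to 0.046). Without the 5 male mice on chow the difference in Cre mice was -0.23 with an adjusted p of 0.27, and it missed the threshold in female mice (-0.34, adjusted p = 0.064) and in male mice (-0.45, adjusted p = 0.15) alone.

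Tax1bp1 and Optn, receptors that serve turnover of aggregates, bacteria and mitochondria, were the receptors that rose alongside Sqstm1, Tax1bp1 in both genotypes and Optn in the knockouts. Tax1bp1 was 197 ± 28.9 CPM (SD, n = 6) on chow and 242 ± 10.4 CPM (SD, n = 5) on MCD in Cre mice, a rise of 0.29 (SE 0.10, edgeR adjusted p = 0.015). The knockouts had 188 ± 24.5 CPM (SD, n = 5) and 235 ± 18.2 CPM (SD, n = 6), a rise of 0.32 (SE 0.10, adjusted p = 0.011). In both genotypes the groups overlapped, and on chow the male mice (207 to 234 CPM) lay above all female mice (160 to 178 CPM). Within female Cre mice Tax1bp1 rose by 0.53 (adjusted p = 5.6e-04), and within male Cre mice the difference was 0.08 (adjusted p = 0.64). Within male knockouts it was 0.17 (adjusted p = 0.37).

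Optn was 107, 91.4, 87.2, 83.9 and 87.2 CPM in liver-Flcn-/- mice on chow and 108 to 143 CPM with a median of 117 on MCD. These groups did not overlap, and Optn rose by 0.41 (SE 0.086, adjusted p = 4.9e-04), while in male mice alone the difference was 0.36 (adjusted p = 0.11). In Cre mice Optn was 94 to 114 CPM on chow and 94 to 121 CPM on MCD, and the difference of 0.06 (SE 0.085) had an adjusted p of 0.54. The interaction of 0.35 had an adjusted p of 0.073, and 0.033 without liver-Flcn-/- chow mouse 1, the mouse with the highest Optn of its group. No receptor passed the edgeR test between genotypes on either diet, and their differences ranged from -0.23 to -0.04 on chow and from -0.04 to 0.23 on MCD. The exact permutation test, unadjusted, gave p = 0.043 for Optn on chow, where edgeR had -0.17 with an adjusted p of 0.23.

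The members that passed the edgeR test between genotypes were Atg8 genes. Of all 10 members 1 passed the edgeR test between genotypes on chow, where 8.62% of the tested genes did, and 4 passed on MCD, where 16.6% did. Gabarapl1, the GABARAP-family member also known as GEC1, was higher in liver-Flcn-/- mice on both diets. On chow Gabarapl1 was 287 to 454 CPM with a median of 381 in Cre mice and 669, 534, 522, 458 and 427 CPM in liver-Flcn-/- mice. These ranges overlap, as they did for each member on chow, whereas 6.94% of the tested genes were apart. The fold change was 0.46 (SE 0.14, adjusted p = 0.040, exact permutation p = 0.017). The call on chow was lost without any of mice 1 to 4 of either genotype (adjusted p 0.052 to 0.12), in female mice alone (0.37, adjusted p = 0.22) and in male mice alone (0.63, adjusted p = 0.23). In female mice without the 2 libraries with the most Y-linked counts the difference on chow was 0.27 (edgeR adjusted p = 0.44). On MCD Gabarapl1 was 249, 261, 227, 301 and 238 CPM in Cre mice and 350 to 573 CPM with a median of 484 in liver-Flcn-/- mice. The groups on MCD did not overlap, as for 8.61% of the tested genes, and the fold change was 0.91 (SE 0.14, adjusted p = 1.3e-04, exact permutation p = 0.0043). It held without each mouse in turn (0.86 to 0.99) and was 0.93 in female and 0.87 in male mice, with adjusted p-values of 0.0023 and 0.056.

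Gabarapl1 also responded to the diet in Cre mice. With MCD it fell by 0.58 (SE 0.14, adjusted p = 0.0014), with only the highest MCD mouse inside the range on chow, and in male mice alone the difference was -0.55 (adjusted p = 0.084). The difference in liver-Flcn-/- mice was -0.12 (SE 0.14, adjusted p = 0.51), and the interaction of 0.46 (SE 0.20) had an adjusted p of 0.15, so the responses of the genotypes were not shown to differ. No member passed the interaction test in edgeR, where 8.83% of the tested genes did. There were 4 members with an unadjusted edgeR p under 0.05 (Map1lc3b, Gabarapl1, Optn and Calcoco1), as had 3446 of the 14062 tested genes. DESeq2 called 1 member and 1701 of those genes.

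Map1lc3b, the LC3 gene whose lipidated product is the usual marker of autophagosomes, rose with MCD in liver-Flcn-/- mice. Per kb, over 7517 bases, its mean was lowest among the Atg8 genes on chow, with a range that overlapped Gabarapl2. In CPM its mean in Cre mice on chow (67.2) was above those of Map1lc3a (29.5) and Gabarapl2 (24.1). Map1lc3b was 60.5 to 87.6 CPM with a median of 62.9 in Cre mice and 85.1, 65.4, 80.3, 62.5 and 62.9 CPM in liver-Flcn-/- mice on chow. On MCD it was 65.4, 68.0, 68.5, 72.6 and 83.9 CPM in Cre mice and 79.3 to 108 CPM with a median of 98.7 in liver-Flcn-/- mice. Only 1 liver-Flcn-/- mouse on MCD lay inside the range of the Cre mice. The difference between genotypes on MCD was 0.44 (SE 0.11, adjusted p = 0.0075), and MCD raised Map1lc3b by 0.45 (SE 0.11, adjusted p = 0.0020) in liver-Flcn-/- mice. In Cre mice the diet made a difference of 0.09 (SE 0.11, adjusted p = 0.48), and the interaction of 0.36 had an adjusted p of 0.15. In male mice alone neither call held, with a difference between genotypes on MCD of 0.50 (adjusted p = 0.10) and a difference between diets of 0.26 (adjusted p = 0.28). In female mice without the 2 libraries with the most Y-linked counts the difference between genotypes on MCD was 0.32 (adjusted p = 0.17).

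Gabarap, the founding member of its subfamily, averaged 235 ± 21.4 CPM (SD, n = 5) in the Cre mice on MCD against 296 ± 32.5 CPM (SD, n = 6) in the knockouts, a difference of 0.33 (SE 0.091, edgeR adjusted p = 0.014). The difference was 0.28 to 0.38 without each mouse in turn, 0.24 in female mice (adjusted p = 0.18) and 0.45 in male mice (adjusted p = 0.13). Over 14 alternatives it ranged from 0.19 to 0.45 and was called in 11, with adjusted p-values of up to 0.37. Map1lc3a was the only member that passed the edgeR test as lower in liver-Flcn-/- mice on MCD, with 25.7 ± 2.79 CPM (SD, n = 6) against 35.0 ± 8.21 CPM (SD, n = 5) and a difference of -0.45 (SE 0.15, adjusted p = 0.043). That call was lost without any of 10 of the 22 mice (adjusted p 0.050 to 0.12) and, at an adjusted p of 0.062, in a fit with a replicate block, and in male mice the difference was -0.23 (adjusted p = 0.60). Without Cre MCD mouse 3, the library with the muscle markers, the difference was -0.57 (edgeR adjusted p = 0.0055). With MCD in Cre mice Map1lc3a differed by 0.25 (SE 0.15, adjusted p = 0.16), and this passed as a rise without Cre MCD mouse 3 (0.37, adjusted p = 0.021), without the 5 male mice on chow (0.48, adjusted p = 0.023) and in female mice alone (0.65, adjusted p = 9.1e-04), against -0.23 (adjusted p = 0.42) in male mice. Gabarapl2, which also takes part in traffic through the Golgi, passed no edgeR test, and its differences lay between -0.16 and 0.19 in the 4 comparisons. For Gabarapl2 between genotypes on MCD (0.19, edgeR adjusted p = 0.35) the exact permutation test, unadjusted, gave p = 0.013.

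**Figure D2:**
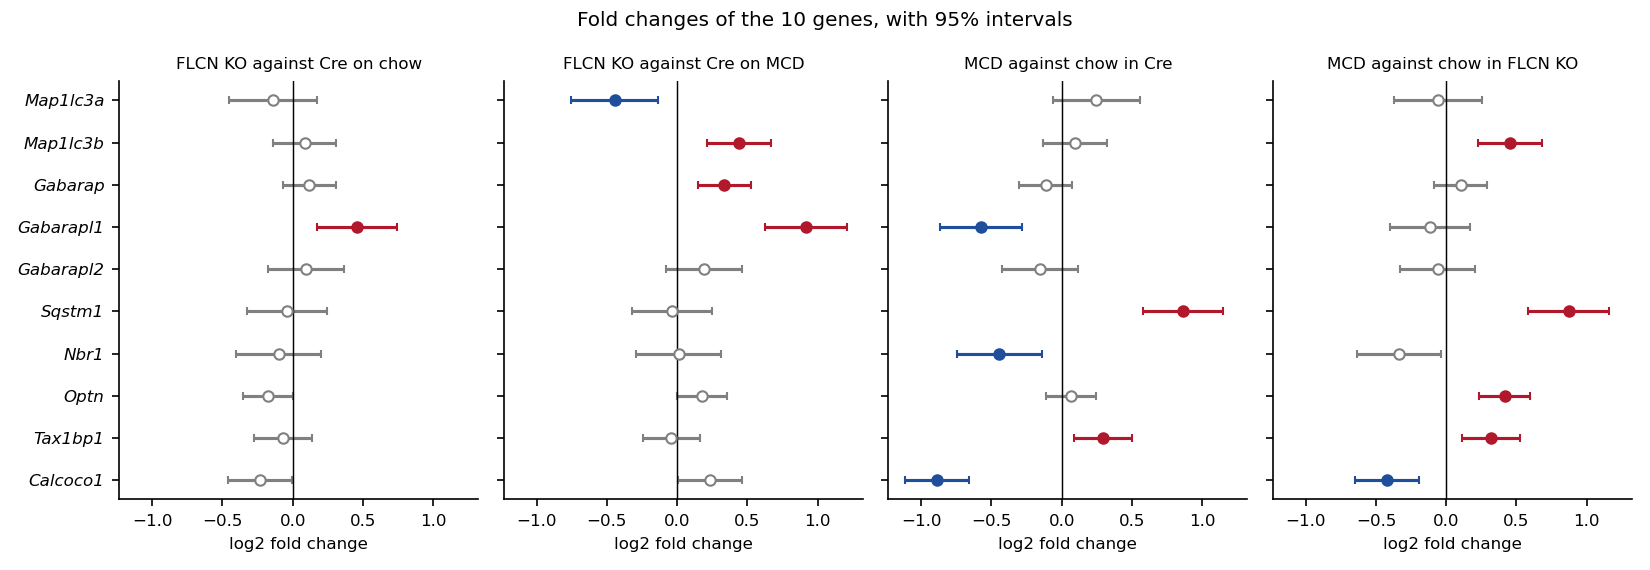
Log2 fold changes of the 10 genes in the 4 comparisons (points, edgeR estimate; bars, 95% interval without adjustment for multiple tests; filled red or blue, higher or lower at an adjusted p under 0.05; open grey, not past it). Filled points between genotypes are all Atg8 genes, and Sqstm1 and Calcoco1 are filled for the diet in both genotypes, in opposite directions.

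All values above are scaled with TMM factors, which were 0.815 to 0.889 in Cre mice and 0.919 to 0.969 in liver-Flcn-/- mice on chow and 1.06 to 1.20 on MCD. With library totals alone the median of all tested genes moved to 0.12 between genotypes on chow, -0.03 on MCD, 0.43 with MCD in Cre mice and 0.27 with MCD in liver-Flcn-/- mice. Changes are therefore relative to the median gene. On library totals Sqstm1 rose with MCD by 1.30 (Cre) and 1.13 (knockout), and Calcoco1 fell by 0.47 in Cre mice. The falls of Gabarapl1 (-0.15, adjusted p = 0.32) and Nbr1 (-0.02, adjusted p = 0.88) in Cre mice and of Calcoco1 in liver-Flcn-/- mice (-0.16, adjusted p = 0.21) were not called on that scale. Rises of Map1lc3a (0.67), Map1lc3b (0.51), Optn (0.48) and Gabarap (0.31) in Cre mice and of Gabarap (0.37) in liver-Flcn-/- mice were called in their place, and Gabarap in Cre mice thereby turned from -0.11 to 0.31. The 4 calls between genotypes on MCD stood on either scale.

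The relation of Sqstm1 to the other 9 genes was read within each library, where the scaling between libraries has no part. On chow Sqstm1 per kb was 0.746 ± 0.212 times Gabarapl1 (SD, n = 6) in Cre mice and 0.522 ± 0.0958 times (SD, n = 5) in liver-Flcn-/- mice. On MCD the ratio was 1.95 ± 0.526 (SD, n = 5) in Cre mice and 1.03 ± 0.165 (SD, n = 6) in liver-Flcn-/- mice. The mean log2 ratio was higher on MCD than on chow for each of the 9 genes in both genotypes, by 0.52 (Tax1bp1) to 1.71 (Calcoco1) in Cre mice and by 0.41 (Map1lc3b) to 1.29 (Calcoco1) in liver-Flcn-/- mice. The ranges on the 2 diets did not overlap for 3 of the 9 ratios in Cre mice (Gabarap, Gabarapl1 and Calcoco1) and for 8 of 9 in liver-Flcn-/- mice (all but Map1lc3b). Against every other tested gene the same was true of 39.6% of ratios for the Cre genotype and 64.3% for the knockout. Between genotypes the ratio to Gabarapl1 on MCD, lower in all liver-Flcn-/- mice, was the only 1 of 9 that did not overlap, and 1.65% of tested genes had such a lower ratio. On chow none of the 9 was apart, and 3.73% of tested genes had a ratio that was lower in all liver-Flcn-/- mice.

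**Figure D3:**
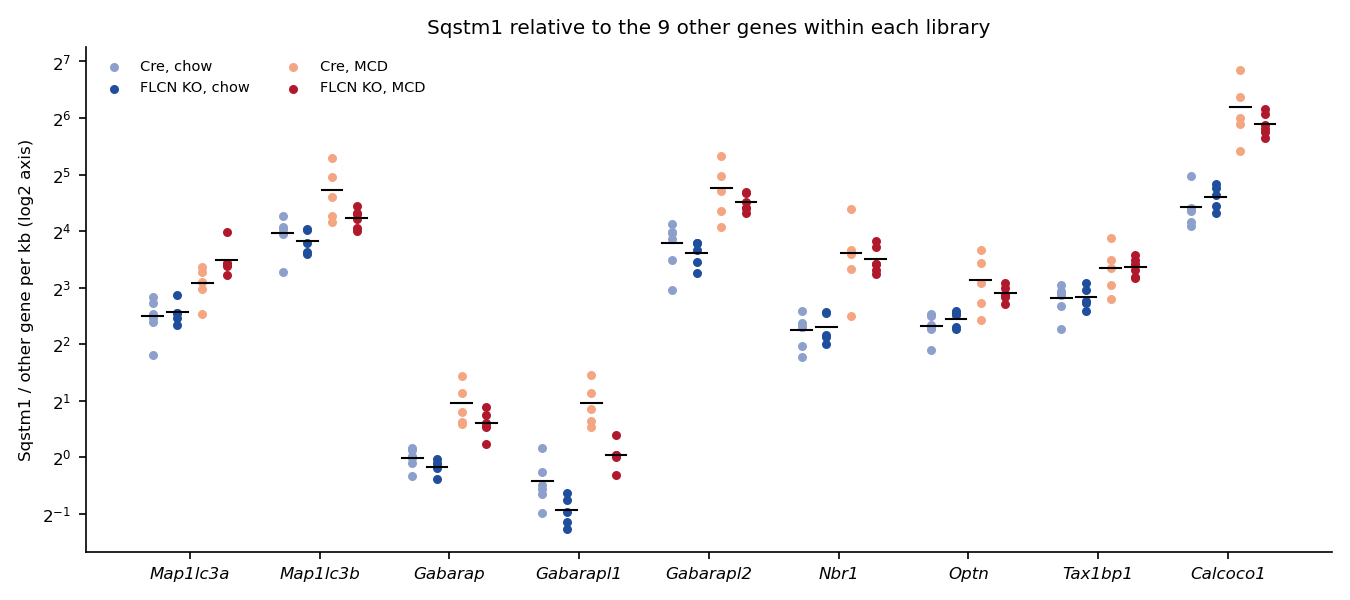
Ratio of Sqstm1 to each of the 9 other genes, per kb of exons, in each library (points, mice, coloured by group; black lines, group means; log2 axis). The group means on MCD lie above those on chow for each gene and genotype, and for Gabarapl1 the 6 liver-Flcn-/- mice on MCD sit below the 5 Cre mice on MCD.

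As a share of the summed level per kb of the 5 receptor genes, Sqstm1 made up 62.01% ± 4.13 (SD, n = 6) in Cre mice and 63.5% ± 2.45 (SD, n = 5) in liver-Flcn-/- mice on chow, and 74.99% ± 6.75 (SD, n = 5) and 74.7% ± 1.89 (SD, n = 6) on MCD. The share of Nbr1 went from 13.4% ± 1.85 and 13.2% ± 1.93 on chow to 7.05% ± 2.83 and 6.72% ± 0.901 on MCD. Among the Atg8 genes Gabarapl1 made up 50.7% ± 4.49 of the summed level per kb in Cre mice on chow, 57.2% ± 2.87 in the knockouts on chow, 41.9% ± 2.82 for Cre on MCD and 53.5% ± 4.44 in liver-Flcn-/- mice on MCD. The Atg8 sum was 371 ± 36.5 and 303 ± 27.8 CPM per kb in Cre mice on chow and MCD and 452 ± 66.2 and 445 ± 49.1 CPM per kb in liver-Flcn-/- mice. The receptor sum was 219 ± 17.4 and 325 ± 66.6 CPM per kb in Cre mice and 208 ± 7.82 and 323 ± 29.1 CPM per kb in liver-Flcn-/- mice. The Atg8 sum on MCD was apart between genotypes (at most 332 in Cre mice, at least 353 in liver-Flcn-/- mice). The receptor sum was apart between diets (at most 247 on chow, at least 250.1 on MCD). Of single tested genes 8.61% were apart between genotypes on MCD, and 32.5% (Cre) and 29.2% (knockout) between diets. The sums mostly reflect Gabarapl1 and Gabarap, and Sqstm1. Other members went the other way: Map1lc3a was lower in the knockouts on MCD, and Nbr1 and Calcoco1 fell with MCD in Cre mice.

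**Figure D4:**
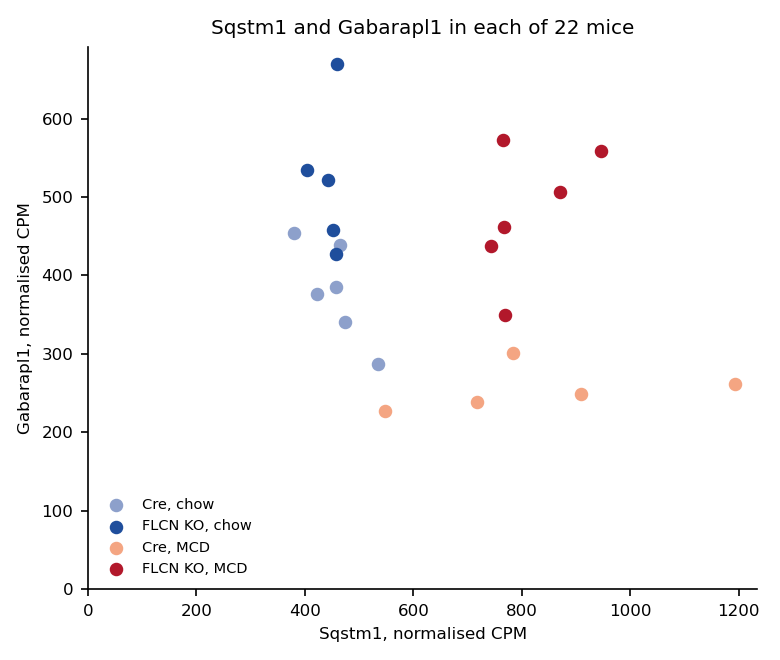
Gabarapl1 against Sqstm1 in each of the 22 mice, both in normalised CPM, coloured by genotype and diet. The diets part along the Sqstm1 axis between 536 and 548 CPM, and on MCD the genotypes part along the Gabarapl1 axis between 301 and 350 CPM.

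Mouse by mouse, Sqstm1 was related to the other 9 genes after group means were removed. No relation passed 0.05 after Benjamini-Hochberg adjustment over the 9 (permutation within groups, n = 22), for Pearson's r or Spearman's rho. The values of r largest in size were those for Nbr1 (r = -0.38, p = 0.15, rho = -0.17, p = 0.50, adjusted p = 0.50 and 0.79) and Calcoco1 (r = -0.30, p = 0.17, rho = -0.25, p = 0.29, adjusted p = 0.50 and 0.79), each with a permutation p. Without Cre MCD mice 2 and 3, the farthest from the median of Sqstm1, r was 0.09 for Nbr1 and -0.12 for Calcoco1, and for Map1lc3a it went from 0.28 to -0.34. With means of group and sex removed the r largest in size was that for Gabarapl2 (-0.57, permutation p = 0.058, adjusted p = 0.52), which was -0.27 with group means removed alone, and r was 0.01 for Map1lc3a. For Gabarapl1 r was 0.04 with a permutation p of 0.85.

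Across all 22 libraries, groups included, the genes whose pattern was most like that of Sqstm1 among 12837 genes of at least 1 CPM included Prune1 and Gars (r = 0.95), then Zfand2a, Noc2l, Pes1, Lonp1 and Nomo1 (r = 0.94), in this order. Gars encodes glycyl-tRNA synthetase, Noc2l and Pes1 nucleolar proteins, and Lonp1 a mitochondrial protease. None of them passed the test between genotypes, and with MCD the log2 fold change of Prune1 was 1.25 for Cre and 1.26 for the knockout. The genes were chosen for following Sqstm1 over these same libraries, which share the diet as their main difference. Their changes with diet and genotype therefore follow from that choice and are no separate result. The other members came far down this order: Tax1bp1 was nearest at rank 2142 (r = 0.67), before Optn (r = 0.52) and Map1lc3b (r = 0.45), and Nbr1 (r = -0.71) and Calcoco1 (r = -0.82) ran opposite to Sqstm1.

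The rest of the pathway was taken from lists of genes. Of 26 tested target genes of TFEB and TFE3, 8 were higher and 1 was lower in the knockouts on chow, and 18 were higher and none lower on MCD, where 5.52% and 8.06% of all tested genes were higher. The list holds Flcn, the deleted gene, which was the 1 that was lower, and Gpnmb, which averaged under 10 reads in Cre mice on chow and without which 7 were higher on chow. Their median log2 fold change was 0.34 on chow and 0.51 on MCD, against -0.03 and -0.01 for all tested genes. Rragd, which encodes a Rag GTPase, was higher by 3.91 (SE 0.25, edgeR adjusted p = 7.8e-10) on chow and by 3.18 (SE 0.24, adjusted p = 2.5e-08) on MCD. Gpnmb, which encodes a glycoprotein also made by macrophages, had 1 to 10 reads a library in Cre mice and 6 to 74 in liver-Flcn-/- mice on chow (0.302 and 2.48 CPM), and 129 and 137 CPM on MCD. The protective protein Ctsa was higher by 1.15 and 1.35 and the hexosaminidase subunit Hexa by 1.23 on chow, while on MCD Depp1 was higher by 1.47 and Fnip2, a folliculin partner, by 1.33. The chow count ranged from 4 to 19 higher over the alternatives, with 12 in DESeq2 and 4 in male mice alone, and the MCD count from 9 in male mice alone to 18. With MCD 13 of the 25 targets with 10 or more reads in each group rose and 2 fell in Cre mice, and 15 of 26 rose in liver-Flcn-/- mice, where 26.4% and 21.9% of the tested genes with such counts rose. Of all 26, Gpnmb included, 21 (Cre) and 20 (knockout) rose on library totals and none fell. In male mice alone 9 and 10 rose and none fell. Besides Gpnmb the largest rises were those of the proton pump subunit gene Atp6v0d2 (2.24 and 1.78) and Rragd in Cre mice (1.62) and the coactivator gene Ppargc1a in the knockouts (1.05).

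Of 11 genes of the machinery that attaches Atg8 proteins to lipid 3 were lower in liver-Flcn-/- mice on chow (Atg3, -0.29, Atg12, -0.27, and Atg5, -0.23), where 3.1% of all tested genes were lower, but on library totals none was lower and 1 higher, and none was lower in either sex alone. On MCD 2 were higher, the E1-like enzyme Atg7 by 0.71 (SE 0.13, edgeR adjusted p = 5.9e-04) and the E2-like enzyme Atg10 by 0.53 (SE 0.13, adjusted p = 0.0069), where 8.06% of all tested genes were higher, and in male mice alone none passed. With MCD in Cre mice 5 of 11 fell, led by Atg16l2 (-1.17), the E2-like enzyme Atg3 (-0.81) and the protease genes Atg4a (-0.61) and Atg4c (-0.36), where 28.2% of all tested genes fell, but on library totals 1 fell and 6 rose, and 2 fell in female and 3 in male mice alone. In liver-Flcn-/- mice 3 fell, Atg16l2 (-1.40), Atg3 (-0.44) and Atg4a (-0.43), and 3 rose, among them Atg10 (0.39), against 1 and 7 on library totals. In the knockouts 22.5% of all tested genes fell and 22.5% rose with MCD, and in male mice alone 1 of the 11 fell and none rose.

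Of 21 other selective autophagy receptors 1 was lower in liver-Flcn-/- mice on chow (Fkbp8, a mitochondrial receptor, -0.35), where 3.1% of all tested genes were lower, but on library totals none was lower and 4 were higher, and none was lower in either sex alone. There were 5 that were higher on MCD, among them the endoplasmic reticulum receptors Retreg1 (0.57) and Tex264 (0.43), Wdfy3 (0.41) and the mitochondrial receptor Fundc1 (0.36), where 8.06% of all tested genes were higher. In male mice alone none of them passed, and in female mice without the 2 libraries with the most Y-linked counts 2 were higher and 1 lower. MCD raised 6 and lowered 8 of them in the Cre genotype, and raised 8 and lowered 4 in the knockout, where 29.3% and 28.2% (Cre) and 22.5% and 22.5% (knockout) of all tested genes rose and fell, but on library totals it raised 12 and 13 and lowered 2 in each. The glycogen receptor Stbd1 rose by 1.15 and 1.21 and Nipsnap2 by 1.18 and 1.17, whereas in Cre mice Bnip3, a mitochondrial receptor, fell by 1.09 and Nipsnap1 by 0.97. In the knockouts Fundc1 rose by 0.65 and Trim5 fell by 0.88. In male mice alone MCD raised 1 and lowered 4 of these receptors for Cre, and raised 2 and lowered 1 for the knockout. Of 13 Atg8-binding effectors of fusion and transport none passed between genotypes on chow, but on library totals 3 were higher. On MCD Rab7 (0.34) and Snap29 (0.23), both needed for fusion with the lysosome, were higher, where 8.06% of all tested genes were. In male mice alone none passed on MCD. MCD raised 2 of the 13 and lowered 4 in Cre mice, among them Mapk8ip1 (0.63), Fyco1 (-0.61), Tecpr2 (-0.48) and Plekhm1 (-0.42). It raised 4 and lowered 2 in the knockout, among them Tbc1d15 (0.51), Epg5 (0.49) and Plekhm1 (-0.43). Of all tested genes 29.3% rose and 28.2% fell in Cre mice, and 22.5% rose and 22.5% fell in the knockouts. On library totals, however, 9 (Cre) and 7 (knockout) of the 13 rose and none fell, and in male mice alone none rose and 1 fell, in the knockouts.

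Among 11 partners and kinases of p62 none passed between genotypes on chow, but on library totals 2 were higher. On MCD Prkcz, an atypical protein kinase C, was higher by 0.60 and Wdr81 by 0.57, where 8.06% of all tested genes were higher. On that diet 1 was higher in male mice alone and none in female mice without the 2 libraries with the most Y-linked counts. With MCD in Cre mice 7 of 11 fell, among them the autophagy kinase gene Ulk1 (-0.79), Prkcz (-0.60), Map2k5 (-0.43) and Rb1cc1 (-0.33), and none rose, where 28.2% of all tested genes fell. On library totals 1 fell and 5 rose, and 3 fell in female and 3 in male mice alone. In liver-Flcn-/- mice 2 fell, Nfe2l2, the gene of NRF2, by 0.35 and Keap1 by 0.17, where 22.5% of all tested genes fell, but on library totals none fell and 2 rose, and 1 fell in female and none in male mice alone. Sqstm1 is itself a target of NRF2. Of 19 other NRF2 target genes 17 averaged 10 or more reads in each group. Among these MCD raised 7 and lowered 3 in the Cre genotype and raised 4 and lowered 2 in the knockout, where 26.4% and 29.7% (Cre) and 21.9% and 22.7% (knockout) of the tested genes with such counts rose and fell. The 4 raised in both were the transporter gene Abcc4 (3.44 and 1.60), the sulfiredoxin gene Srxn1 (2.33 and 0.96), the heme oxygenase gene Hmox1 (1.63 and 0.52) and Gsta2 (1.43 and 1.25). The remaining 2, the cystine transporter gene Slc7a11 and Gsta1, met the count filter through the MCD mice and are given by their values. Slc7a11 had 0 or 1 read in each library on chow and on MCD 4.39 ± 1.59 CPM in the 5 Cre mice against 1.28 ± 1.16 CPM in the 6 knockouts (mean ± SD). Gsta1 had 1 to 18 reads in a library on chow, and on MCD 7.63 ± 2.74 CPM in those Cre mice against 2.55 ± 1.28 CPM in those knockouts. Over all 19, these 2 included, MCD raised 9 and lowered 3 (Cre) and raised 6 and lowered 2 (knockout). On library totals it raised 13 and lowered 1 (Cre) and raised 8 and lowered 2 (knockout). In male mice alone it raised 7 and lowered 1 in each genotype. In female mice without the 2 libraries with the most Y-linked counts it raised 10 and lowered 1 (Cre), and raised 2 and lowered 4 (knockout). On chow 1 of the 17 passed between genotypes, Hmox1, which was higher in the knockouts by 0.67 (adjusted p = 0.0013), and 4.76% of the tested genes with such counts were higher. Between genotypes on MCD 8 of the 19 were lower in liver-Flcn-/- mice, where 8.53% of all tested genes were lower, with Slc7a11 at -1.77, Gsta1 at -1.57, Gstm1 at -0.97 and Srxn1 at -0.95, while Sqstm1 differed by -0.03. In male mice alone none of the 19 passed that test, and in female mice alone 10 did.

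**Figure D5:**
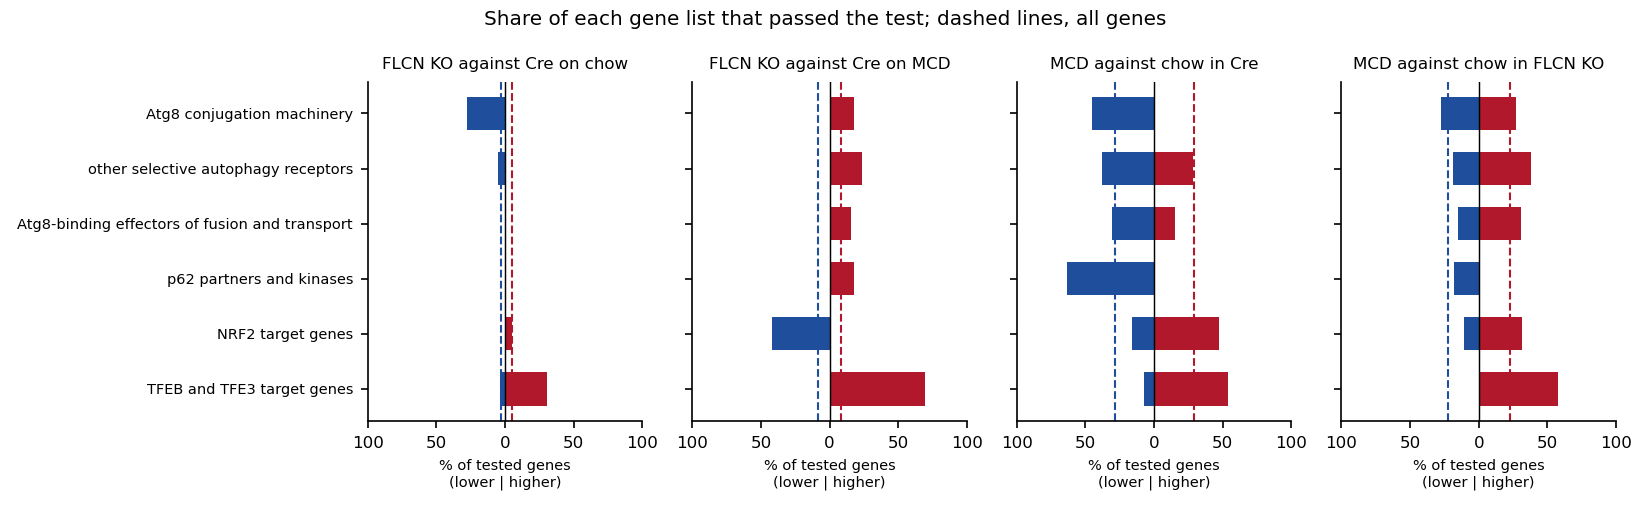
Share of the tested genes of each list that passed the edgeR test as higher (red, to the right) or lower (blue, to the left) in each comparison, in percent, with dashed lines for all 14062 tested genes. The TFEB and TFE3 targets reach farthest to the right on MCD between genotypes (18 of 26), where the NRF2 targets extend to the left (8 of 19). The shares for the diet include Slc7a11, Gsta1 and Gpnmb, which were near 0 on chow in Cre mice.

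In promoter windows from 250 bases before to 50 bases after the start (RefSeq, GRCm38.p6), 9 of the 10 members have entries, with 11 windows. The letters CACGTG, the core of the site bound by TFEB and TFE3, searched on both strands, were in none of these windows and in 7.15% of all 32851 windows. The letters TGACNNNGC, the core of the NRF2 site, were in 1 window each of Map1lc3b and Tax1bp1 and in 12.4% of all windows. A match describes letters only.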

How the data were processed

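Poly(A) RNA of 22 livers was sequenced as 75-base single-end reads. The authors demultiplexed with bcl2fastq, trimmed with Trimmomatic (Phred 30), aligned to GRCm38 with STAR and counted reads per gene with HTSeq; the deposited values are raw counts of 55573 genes. Versions, the strand setting and any collapsing of molecular identifiers are not given in the sources used here. Groups were taken from the labels, and p-values measure the spread between mice.

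Counts were fitted with edgeR 4.0.16 (quasi-likelihood, TMM factors, R 4.3.3) in 1 model of 4 groups over the 14062 genes that averaged 10 counts or more, with Benjamini-Hochberg adjustment over all of them and a threshold of 0.05. SE is the log2 fold change over the root of F, and intervals use the t distribution with the degrees of freedom of that test. Single values were tested by exact two-sided permutation, relations by 100000 permutations within groups. Alternatives were DESeq2 1.42.0, limma-voom 3.58.1, other scaling, filters, samples, sex and a replicate block. On simulated counts of 14062 genes, of which 200 were changed, the edgeR test recovered 67% (chow) and 74% (MCD) of genotype changes of 1 log2 unit. Of those of 0.5 it recovered 28% and 19%, and 3.06% and 6.06% of its calls were false. In the data 8.62% and 16.6% of genes were called, so these rates need not hold for the reported tests. The named genes are the members, up to 4 genes of each list with the largest called change per comparison and the 8 genes most like Sqstm1, of which 1 is not reported here. Members and lists were chosen with earlier results of these data known.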

Additional observations from a re-analysis of the deposited data

Results flagged for a closer look

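Of 40 sets of values, 10 genes in 4 groups, 2 held a mouse far from the rest by Dixon's criterion, which chance meets in about 1 of 20 sets. Map1lc3b was 87.6 CPM in Cre chow mouse 6, and the nearest other mouse had 67.0 CPM, a gap of 0.76 of the range of the group. Sqstm1 was 403 CPM in liver-Flcn-/- chow mouse 2, the lowest of its group, and the nearest other mouse had 443 CPM, a gap of 0.713 of the range.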

How the results depend on the processing

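Over mice left out in turn, the members called between genotypes numbered 0 to 1 on chow and 3 to 4 on MCD, those called for the diet 5 to 6 in each genotype and those called for the interaction 0 to 2. Over all genes the calls then ranged from 669 to 1428, 1770 to 2466, 7595 to 8165, 5613 to 6591 and 813 to 1422 in the same order. On chow 0 members were called without the 5 male mice, with only the groups compared, in female mice and in male mice, and over all genes 495 without those 5, 627 in female and 335 in male mice. In male mice the other comparisons called 0, 1 and 1 members and 720, 4685, 2905 and, for the interaction, 63 genes. In DESeq2 the interaction called 1 member and 1701 genes. It called 783 genes without the 5 male mice on chow and 683 without the 2 female libraries with the most Y-linked counts. In female mice without those 2 libraries, 0 members were called on chow and 2 members and 1509 genes on MCD.

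A replicate block left the interaction with 552 genes called. The mean correlation of same-numbered mice was 0.0614 on chow, 0.1287 on MCD, -0.0842 over diets for Cre and -0.0112 for the knockout. On chow it was 0.43, 0.35 and 0.47 for mice 1, 2 and 4, which were of like sex. For mice 3 and 5, of unlike sex, it was -0.55 and -0.39. These means therefore do not settle whether the numbers pair mice. The block lost Map1lc3a on MCD (-0.47) and added Nbr1 in liver-Flcn-/- mice (-0.37). It turned Sqstm1 (0.0137) and Nbr1 (-0.019) between genotypes on MCD and Gabarapl2 (-0.0181) and Tax1bp1 (-0.046) in the interaction.

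In all 76 values changed sign, none of them called with all mice. Between genotypes on chow these were Nbr1 without the 5 male mice (0.14), in female mice (0.14) and on library totals (0.0491), Map1lc3a (0.0156), Sqstm1 (0.11) and Tax1bp1 (0.0809) on library totals, and Sqstm1 in male mice (0.0001). On MCD they were Sqstm1 in limma-voom (0.0111) and Sqstm1 (0.29), Nbr1 (-0.18) and Tax1bp1 (0.0488) in male mice. For the diet in Cre mice they were Gabarapl2 without the 5 male mice (0.0756), on library totals (0.27) and in female mice (0.0768), Gabarap on library totals (0.31), and Map1lc3a (-0.23) and Map1lc3b (-0.0172) in male mice. In liver-Flcn-/- mice they were Map1lc3a, Gabarapl1 and Gabarapl2 without the 5 male mice (0.0638, 0.0219, 0.13), on library totals (0.20, 0.14, 0.20) and in female mice (0.12, 0.0103, 0.0839). In the interaction they were Sqstm1 in DESeq2 (-0.0014), with RLE factors (-0.0014), unfiltered (-0.0114), on library totals (-0.17) and in female mice (-0.19), Gabarapl2 on library totals (-0.0638), Nbr1 without the 5 male mice (-0.13) and on library totals (-0.0483), and Tax1bp1 without the 5 male mice (-0.0332), on library totals (-0.13), in female mice (-0.12) and with sex as a covariate (-0.0155). In female mice without the 2 libraries with the most Y-linked counts they were Sqstm1 (0.0121) and Nbr1 (0.0832) between genotypes on chow, Gabarap (0.0286) and Gabarapl2 (0.13) for the diet in Cre mice, Map1lc3a (0.11), Gabarapl1 (0.11) and Gabarapl2 (0.0675) in liver-Flcn-/- mice, and Gabarapl2 (-0.062), Sqstm1 (-0.27) and Tax1bp1 (-0.11) in the interaction. The relation of Sqstm1 to Tax1bp1 was -0.27 with means of group and sex removed. Over mice left out in turn Sqstm1 ranged from -0.0877 to 0.0111 and Gabarapl2 from -0.0112 to 0.21 between genotypes on chow, Sqstm1 from -0.15 to 0.13 and Nbr1 from -0.0663 to 0.14 on MCD, Map1lc3a from -0.12 to 0.01 and Gabarapl2 from -0.11 to 0.0446 with MCD in liver-Flcn-/- mice, and Sqstm1 from -0.11 to 0.17, Gabarapl2 from -0.0217 to 0.20 and Tax1bp1 from -0.026 to 0.0898 in the interaction. The cause of these changes was not tested. Library totals, the fits within a sex, those without the 2 libraries, the counts over genes of 10 or more reads in each group and the removal of sex means were chosen after seeing the data.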
